A study of Mus musculus with 6 samples.

Results

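Chemokine and homing receptors are the G protein-coupled receptors through which blood cells sense where to stay and where to go. A set of 10 genes was taken by symbol: Cxcr4, Cxcr2, Cxcr3, Cxcr5, Cxcr6, Ccr1, Ccr2, Ccr7 and Cx3cr1, which are chemokine receptors, and S1pr1, a receptor for sphingosine 1-phosphate (S1P). All 10 were found among the 30733 gene symbols of the deposited tables, each in a single row. RNA sequencing had been done on mouse bone marrow cells labelled as haematopoietic stem cells (HSCs) and sorted into fractions of high and low surface MHC class II, with 3 libraries of MHCII-hi and 3 of MHCII-lo cells. Every library came from wild-type mice given 5 Gy of total body irradiation, so both groups share the genotype and the irradiation, and no unirradiated cells were compared. The sources used here do not give ages, the number of mice, the time after irradiation or the sort gates. Values are FPKM, fragments scaled to transcript length and to the library's total, which can be compared between genes because they are per length.

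Each chemokine receptor binds one or a few small secreted chemokines and couples mainly to inhibitory G proteins, which steer a cell up the chemokine gradient. In bone marrow, stromal Cxcl12 holds stem cells and immature neutrophils through Cxcr4, and mature neutrophils leave along ligands of Cxcr2. S1P is high in blood and lymph and low inside tissues, and S1pr1 lets lymphocytes and some progenitors follow that gradient out. Ccr2 brings monocytes out of the marrow, Cx3cr1 marks their patrolling form, and Cxcr3, Cxcr5, Cxcr6 and Ccr7 are best known on T, B, NK and dendritic cells.

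The upstream sequences of 3 of these genes are shown because they come from receptors that differed in opposite directions. RefSeq promoter windows (build GRCm38.p6) matched 7 of the 10 genes, and the 250 bases before the RefSeq start site are used here. RefSeq and GENCODE place some starts differently: by GENCODE M21, 250 bases of the Cx3cr1 window, 233 of the Ccr2 window and 122 of the Cxcr3 window lie inside the gene, against 5 for Cxcr2, 2 for Cxcr6 and 0 for Cxcr4 and Ccr1. Capitals mark GAGGAA or its reverse complement TTCCTC, the core bound by the myeloid and lymphoid factor PU.1, in Cxcr2 and Ccr1. In Cxcr4 they mark the CpG dinucleotides, the usual target of DNA methylation, because this window is rich in them. The windows are chr1:128592300-128592549 (minus strand) for Cxcr4, chr1:74153744-74153993 (plus) for Cxcr2 and chr9:123968693-123968942 (minus) for Ccr1.
Cxcr4: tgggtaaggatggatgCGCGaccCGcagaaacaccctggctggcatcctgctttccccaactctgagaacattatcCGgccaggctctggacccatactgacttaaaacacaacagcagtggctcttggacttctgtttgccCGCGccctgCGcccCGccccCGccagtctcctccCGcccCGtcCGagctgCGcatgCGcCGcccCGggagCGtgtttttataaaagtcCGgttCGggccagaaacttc
Cxcr2: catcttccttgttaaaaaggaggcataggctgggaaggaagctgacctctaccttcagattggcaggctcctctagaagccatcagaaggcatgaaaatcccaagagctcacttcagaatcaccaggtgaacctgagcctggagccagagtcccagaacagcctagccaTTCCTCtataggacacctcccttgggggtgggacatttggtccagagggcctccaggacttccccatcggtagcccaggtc
Ccr1: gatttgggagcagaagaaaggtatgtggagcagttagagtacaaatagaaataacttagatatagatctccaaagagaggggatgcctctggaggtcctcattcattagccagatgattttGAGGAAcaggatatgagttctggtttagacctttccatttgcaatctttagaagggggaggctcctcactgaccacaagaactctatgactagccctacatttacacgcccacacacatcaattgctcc

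The Cxcr4 window held 19 CpG dinucleotides and 61.2% G and C, against medians of 6 and 52.4% over all windows. The windows of Cxcr2 and Ccr1 each held 1 CpG. GAGGAA on either strand was present in 3 of 7 receptor windows (Cxcr2, Ccr1 and Cxcr3) and in 23.3% of 32841 windows of the same length. The Cxcr3 match lies in the bases that GENCODE places inside the gene. Searched on both strands as well were CACCC, bound by KLF factors (3 of 7 and 52.0% of all), ACGTG of the hypoxia response element (0 of 7 and 16.6%), TTNNNCAA, a loose form of the C/EBP site (7 of 7 and 33.3%), and GGG and CC with any 5 bases between them, a loose form of the NF-kB site (4 of 7 and 45.8%). In Ccr1 the TTNNNCAA match overlapped the GAGGAA match. These matches describe letters only.

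Depth had to be estimated, from the step that a single fragment makes in the lowest values, and came to between 20300000 and 32600000 fragments per library. Squared differences between replicates were 2.64 to 3.03 times those expected from counting at that depth. The labels do not tell whether replicates are different mice. A p-value here therefore reflects the scatter among 6 libraries, part or all of which may be technical. The sort was checked by 4 class II genes (Cd74, H2-Aa, H2-Ab1 and H2-Eb1), whose summed level was 563 to 581 FPKM in MHCII-hi and 21.2 to 21.5 FPKM in MHCII-lo libraries. The HSC label was checked with 12 markers: the summed level was 56.8 to 62.6 FPKM in MHCII-hi and 19.7 to 20.6 FPKM in MHCII-lo libraries. Ly6a gave most of it in MHCII-hi (35.5 FPKM on average) and Kit in MHCII-lo (12.6 FPKM). Of these markers 4 stayed under 0.5 FPKM in every library, among them Mecom and Fgd5, which define long-term HSCs. The summed level of 12 neutrophil markers was 15596 to 15983 FPKM in MHCII-hi and 37991 to 38667 FPKM in MHCII-lo. In such bulk samples, fewer cells of a type and less RNA per cell cannot be told apart.

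In all, 3 receptors were lower in MHCII-hi cells, namely Cxcr2, Ccr1 and Ccr2, and 6 were higher: Cxcr4, S1pr1, Cx3cr1, Cxcr3, Ccr7 and Cxcr6. The counts come from limma on log2(FPKM + 1) over the 12110 genes that averaged 1 FPKM or more, at a Benjamini-Hochberg adjusted p of 0.05. Over all tested genes 25.5% were higher, 33.1% were lower and 58.6% passed in either direction, so that passing the test was common. Of the receptors 9 were tested, and Cxcr5 lay below the minimum. Cxcr3, Cxcr6 and Ccr7 averaged under 1 FPKM in MHCII-lo and were tested only because of their MHCII-hi level, which favours a difference. The groups did not overlap for any of the 10 receptors, and they did not overlap for 65.8% of tested genes (29.0% higher and 36.8% lower in MHCII-hi). The median log2 change was 0.81 over the 9 tested receptors and -0.04 over all tested genes. Called genes were 43.5% higher ones in this fit, 34.9% with quantile normalization and 61.8% with upper-quartile scaling. They were 69.7% when libraries were scaled to their summed FPKM without immunoglobulin genes. That last scaling moved the median of all genes by 0.15, and quantile normalization moved it by -0.06. Some abundant genes moved further with quantile normalization, such as Cxcr4 from 0.34 to 0.02 and Ccl3 from 0.88 to 0.48. Changes below are to be read against these shifts.

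**Figure D1:**
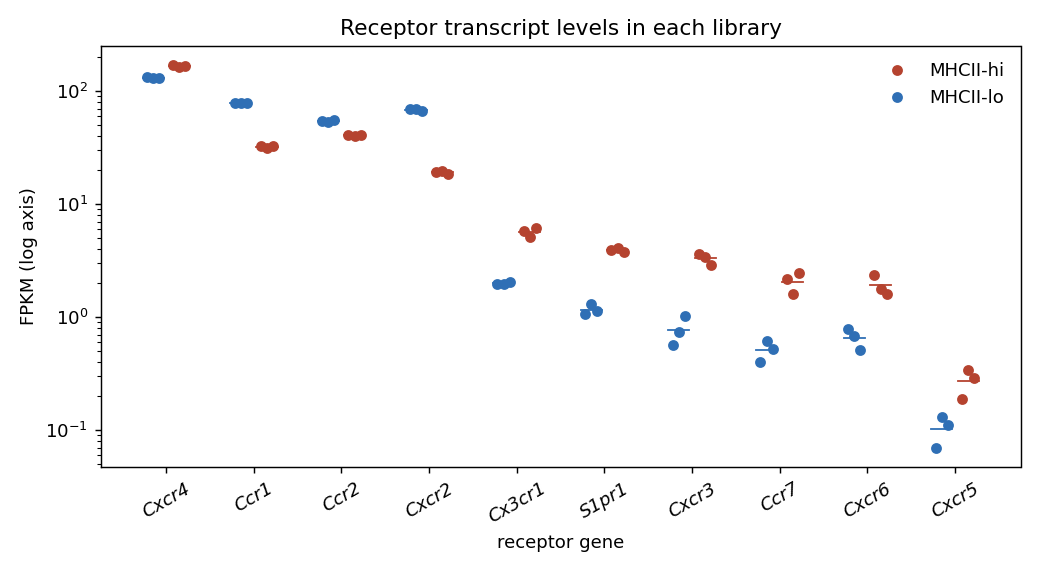
FPKM on a log axis for each receptor gene in 3 MHCII-hi (red) and 3 MHCII-lo (blue) libraries, with a line at each group's mean. Cxcr4, Ccr1, Ccr2 and Cxcr2 stand above 18 FPKM in every library and the other 6 at or below 6.16 FPKM, and the groups do not overlap for any receptor.

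**Figure D2:**
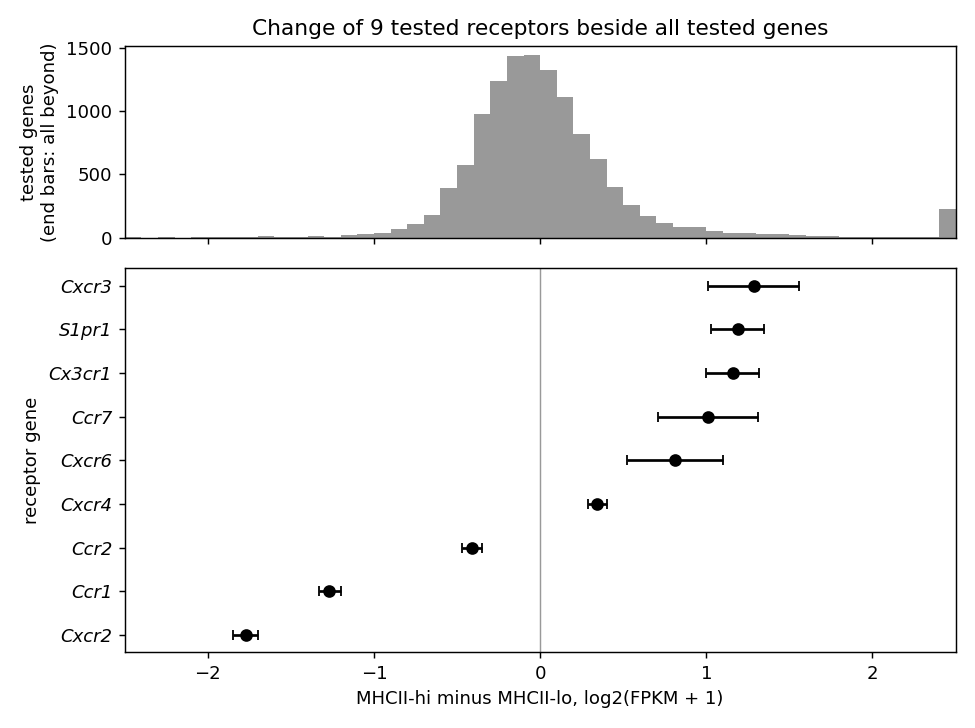
Difference between MHCII-hi and MHCII-lo on the log2(FPKM + 1) scale for the 9 tested receptors, with 95% confidence intervals from limma, under a histogram of the same difference over 12110 tested genes whose end bars hold all values beyond the axis. Cxcr2 and Ccr1 lie far to the left at -1.77 and -1.27, Ccr2 and Cxcr4 lie nearer to 0, and 5 receptors lie between 0.81 and 1.29.

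Cxcr4, the receptor for the marrow retention chemokine Cxcl12, was the most abundant receptor of the set in both groups. It lies on chromosome 1 (128588199 to 128592293, minus strand, GENCODE M21 on GRCm38). The MHCII-hi libraries held it at 170.57, 163.46 and 167.95 FPKM, and the MHCII-lo libraries at 133.68, 130.94 and 130.78 FPKM. The lowest MHCII-hi library stood above the highest MHCII-lo library, and each group was tight. The means were 167 ± 3.60 and 132 ± 1.63 FPKM (SD, n = 3), a 1.27-fold difference. On the log2(FPKM + 1) scale the change was 0.34 (SE 0.02, 95% interval 0.29 to 0.40, limma adjusted p = 2.82e-05). With quantile normalization the change was 0.02 with a limma adjusted p = 0.578, so this call rests on the scaling, and without immunoglobulin genes in the scale it was 0.52. In both groups 98.9% of all symbols had a lower level than Cxcr4.

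Cxcr2, the receptor that mature neutrophils use to leave the marrow, was the most strongly lowered member. It lies on chromosome 1 as well (74153989 to 74161246, plus strand). The MHCII-hi libraries gave 19.48, 19.75 and 18.61 FPKM and the MHCII-lo libraries 69.18, 69.07 and 66.70 FPKM. Every MHCII-lo library stood far above every MHCII-hi library. The means of 19.3 ± 0.596 and 68.3 ± 1.40 FPKM (SD, n = 3) differ 3.54-fold. The log2 change was -1.77 (SE 0.03, limma adjusted p = 4.44e-08), and 0.2% of tested genes had a lower value. Across all alternatives with a pseudocount of 1 it lay between -1.84 and -1.60. All 12 neutrophil markers were lower too, where 33.1% of all tested genes were. Their median log2 change was -1.34, and their part in the Cxcr2 value was not tested.

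S1pr1, the receptor through which cells leave tissue along S1P, was higher in MHCII-hi cells but at a low level. Its gene is on chromosome 3 (115710433 to 115715072, minus strand). Its level was 3.91, 4.09 and 3.81 FPKM in MHCII-hi and 1.07, 1.30 and 1.13 FPKM in MHCII-lo. The MHCII-hi libraries had a coefficient of variation of 3.60%, and no library of one group reached the other. The means were 3.94 ± 0.142 and 1.17 ± 0.119 FPKM (SD, n = 3), a 3.37-fold difference. In log2 this was 1.19 (SE 0.07, limma adjusted p = 1.15e-05). An estimated 253 to 388 fragments per MHCII-hi library and 74 to 95 per MHCII-lo library lie behind these values.

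Ccr1, a receptor for Ccl3, Ccl5 and related inflammatory chemokines that is common on myeloid cells, was lower in MHCII-hi cells. Its position is chromosome 9 (123962124 to 123968692, minus strand). The values were 32.69, 31.18 and 32.50 FPKM in MHCII-hi and 78.91, 78.04 and 79.15 FPKM in MHCII-lo. Both groups were narrow and far apart. The means of 32.1 ± 0.822 and 78.7 ± 0.584 FPKM (SD, n = 3) differ 2.45-fold, or -1.27 in log2 (SE 0.03, limma adjusted p = 9.09e-08).

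Ccr2, the monocyte receptor for Ccl2, was lower by a smaller margin. It lies on chromosome 9 (124101950 to 124113557, plus strand). It stood at 40.83, 40.49 and 40.98 FPKM in MHCII-hi and at 54.31, 53.81 and 55.67 FPKM in MHCII-lo, so the groups were separate with little spread. The means were 40.8 ± 0.251 and 54.6 ± 0.963 FPKM (SD, n = 3), a 1.34-fold difference. The log2 change was -0.41 (SE 0.02, limma adjusted p = 1.48e-05), and it was -0.24 when the scale left out immunoglobulin genes. Monocyte and macrophage markers were mixed: of 12 tested, 4 were higher, 7 lower and 1 did not pass. For all tested genes the shares were 25.5% higher and 33.1% lower.

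Cx3cr1, the receptor for the membrane-bound chemokine Cx3cl1 and a marker of patrolling monocytes, went the other way from Ccr2. It lies on chromosome 9 (119901616 to 120069879, minus strand). The libraries gave 5.82, 5.16 and 6.16 FPKM in MHCII-hi and 1.96, 1.98 and 2.05 FPKM in MHCII-lo. The lower group was tight, and the higher group spread over 1 FPKM without reaching it. The means were 5.71 ± 0.508 and 2.0 ± 0.0473 FPKM (SD, n = 3), a 2.86-fold difference, or 1.16 in log2 (SE 0.07, limma adjusted p = 1.38e-05).

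Cxcr3, the receptor of activated T and NK cells for Cxcl9, Cxcl10 and Cxcl11, had the largest log2 change upward of the 10 genes. The gene is on chromosome X (101731535 to 101734269, minus strand). Its level was 3.64, 3.43 and 2.89 FPKM in MHCII-hi and 0.57, 0.74 and 1.02 FPKM in MHCII-lo. The groups did not overlap, but the MHCII-lo values varied by 29.3% (coefficient of variation) and rest on an estimated 22 to 43 fragments each. The means of 3.32 ± 0.387 and 0.777 ± 0.227 FPKM (SD, n = 3) differ 4.27-fold, or 1.29 in log2 (SE 0.12, 95% interval 1.01 to 1.56, limma adjusted p = 1.16e-04).

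Ccr7 guides dendritic cells and naive T cells to lymph nodes, and it lies on chromosome 11 (99144196 to 99155077, minus strand). It was at 2.17, 1.59 and 2.44 FPKM in MHCII-hi and at 0.40, 0.62 and 0.52 FPKM in MHCII-lo. All 3 MHCII-hi libraries were above all 3 MHCII-lo libraries, with coefficients of variation of 21.0% and 21.5%. The means were 2.07 ± 0.434 and 0.513 ± 0.110 FPKM (SD, n = 3), a 4.03-fold difference, or 1.01 in log2 (SE 0.13, limma adjusted p = 5.44e-04).

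Cxcr6, the receptor for Cxcl16 on tissue-resident T, NK and innate lymphoid cells, lies on chromosome 9 (123806475 to 123811760, plus strand). It was at 2.36, 1.78 and 1.60 FPKM in MHCII-hi and at 0.78, 0.68 and 0.51 FPKM in MHCII-lo. Replicate 1 was the highest library of the MHCII-hi group, and the groups were separate. The means of 1.91 ± 0.397 and 0.657 ± 0.137 FPKM (SD, n = 3) differ 2.91-fold, or 0.81 in log2 (SE 0.12, limma adjusted p = 0.00136).

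Cxcr5, the receptor that brings B cells and follicular helper T cells to Cxcl13, was close to the detection limit. It lies on chromosome 9 (44511787 to 44561877, minus strand). Its level was 0.19, 0.34 and 0.29 FPKM in MHCII-hi and 0.07, 0.13 and 0.11 FPKM in MHCII-lo. The groups did not overlap, yet at most 20 estimated fragments lie behind an MHCII-hi value and at most 9 behind an MHCII-lo value. With no expression minimum the log2 change was 0.21 (SE 0.05, 95% interval 0.07 to 0.34, limma adjusted p = 0.0512), which did not pass. In that fit 23.6% of 30733 genes passed.

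Markers of lymphoid and dendritic cells were higher in MHCII-hi libraries, as were Cxcr3, Ccr7, Cxcr6, Cx3cr1 and S1pr1. The summed level of 12 T cell markers was 61.0 to 63.2 FPKM in MHCII-hi and 16.6 to 18.9 FPKM in MHCII-lo, and all 8 that were tested were higher, where 25.5% of all tested genes were. For 10 NK cell markers it was 65.0 to 67.6 against 16.0 to 18.3 FPKM, and 10 were higher. As with the low receptors, 6 of these NK cell genes and 1 of the tested T cell genes averaged under 1 FPKM in MHCII-lo and were tested only through MHCII-hi. For 10 conventional dendritic cell markers, a list that contains Ccr7, it was 68.3 to 70.8 against 11.3 to 11.7 FPKM. This list shares Irf4 (19.5 against 0.55 FPKM on average) with the plasma cell list. For 10 B cell markers it was 52.6 to 55.9 against 7.24 to 8.39 FPKM, and for 10 plasma cell markers 1522 to 1535 against 80.1 to 83.4 FPKM. Jchain gave most of the plasma cell sum in MHCII-hi (1342 FPKM on average) and Xbp1 in MHCII-lo (64.7 FPKM). No marker of the T cell, NK cell or dendritic cell lists was listed at 0 in all libraries of a group, and Cr2 of the B cell list was at 0 in all MHCII-lo libraries. Other lists rose as well: all 8 eosinophil genes tested were higher, as were 7 of 8 basophil and mast cell genes. So were 5 of 8 megakaryocyte and platelet genes. Of 10 stroma and endothelium genes only 4 were tested, and 4 were higher. Of 12 long-term HSC genes only 5 were tested, and 4 were higher. None of the 12 neutrophil or 8 erythroblast genes was higher, and monocyte and macrophage markers were mixed. The part of any of these cells in the receptor values was not tested.

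Cxcr4 made up more of the receptor transcripts in MHCII-hi than in MHCII-lo cells, and Cxcr2 and Ccr1 less. Cxcr4 took 60.5% ± 0.181 (SD, n = 3) of the summed level of the 10 receptors in MHCII-hi libraries and 38.9% ± 0.254 in MHCII-lo ones. Cxcr2 took 6.97% ± 0.288 and 20.2% ± 0.375, and Ccr1 11.6% ± 0.115 and 23.2% ± 0.174. The gap was smaller for Ccr2, at 14.7% ± 0.219 and 16.1% ± 0.316. A share or ratio within a library is unchanged when a library is multiplied by a single factor, but not under quantile normalization. Cxcr4 transcripts were 8.76, 8.28 and 9.02 times those of Cxcr2 in the MHCII-hi libraries and 1.93, 1.90 and 1.96 times in the MHCII-lo libraries. Ccr2 stood at 1.27 ± 0.0259 times the level of Ccr1 in MHCII-hi and 0.694 ± 0.00837 times in MHCII-lo, which places Ccr2 above Ccr1 in one group and below it in the other. A two-sided exact permutation test of 3 libraries against 3 cannot give a p below 0.1, and each of these shares and ratios reached it.

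**Figure D3:**
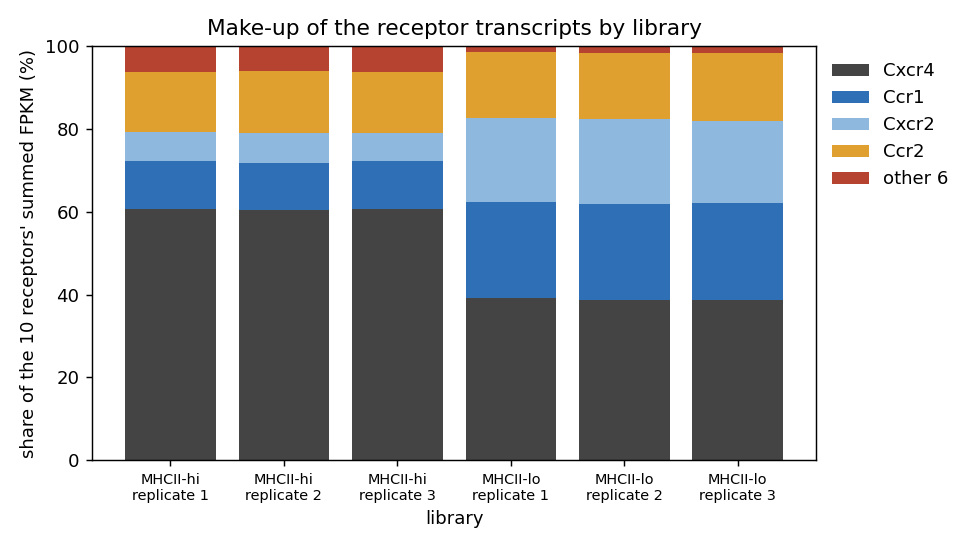
Stacked bars give the share of each receptor, in percent, of the summed FPKM of the 10 receptors in each of the 6 libraries. Cxcr4 (dark grey) fills about 60.5% of the MHCII-hi bars and 38.9% of the MHCII-lo bars, and the blue segments of Ccr1 and Cxcr2 are smaller in MHCII-hi.

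Set against the summed level of the neutrophil markers, the myeloid receptors did not move alike. Cxcr2 stood at 1.22 ± 0.0233 per 1000 FPKM of the neutrophil list (SD, n = 3) in MHCII-hi cells and at 1.79 ± 0.0290 in MHCII-lo cells. Ccr1 stood at 2.03 ± 0.0722 and 2.06 ± 0.0226 by the same measure, groups that overlap (two-sided exact permutation p = 0.9). For Cxcr4 the values were 10.6 ± 0.316 and 3.45 ± 0.0101. All ratios between receptors or to this list were chosen after the values had been seen. S100a9 and S100a8, with folds of 2.56 and 3.05, make up most of the list total. All markers were higher in MHCII-lo, and the folds of the others ran from 1.58 (Ltf) to 31.6 (Stfa2). Mmp8 differed 4.12-fold, more than the 3.54-fold of Cxcr2, and Ngp 1.63-fold, less than the 2.45-fold of Ccr1. The ratios to the list therefore hold for this sum and not for every neutrophil marker.

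Ccr1, Ccr2 and Cxcr2 stood in a different order in the 2 sorts, each apart from its neighbours, and Ccr7 and Cxcr6 also changed places but overlapped in both. In MHCII-hi it ran Cxcr4, Ccr2, Ccr1, Cxcr2, Cx3cr1, S1pr1, Cxcr3, Ccr7, Cxcr6, Cxcr5, and only Ccr7 and Cxcr6 overlapped as neighbours. In MHCII-lo it ran Cxcr4, Ccr1, Cxcr2, Ccr2, Cx3cr1, S1pr1, Cxcr3, Cxcr6, Ccr7, Cxcr5, and Cxcr3 overlapped Cxcr6, as Cxcr6 did Ccr7. Among 113 tested marker genes, likeness was measured as the distance between the 6 centred log2(FPKM + 1) values of 2 genes, which is dominated by the group difference. Nearest to Cxcr2 were the neutrophil genes S100a8 (0.21) and Mmp9 (0.25), and nearest to Ccr1 were the neutrophil genes Cd177 (0.08) and S100a9 (0.14). Cxcr4 was nearest to the monocyte and macrophage genes Csf1r (0.06) and Adgre1 (0.09), and Ccr2 lay close to the monocyte gene Ly6c2 (0.16). Cxcr3 lay nearest to the T cell genes Trbc2 (0.27) and Cd3d (0.30). The nearest genes of Cx3cr1 were Thbs1 (0.15) and Flt3 (0.16), those of S1pr1 Thbs1 (0.13) and Prg2 (0.17), those of Ccr7 Cxcl12 (0.26) and Prss34 (0.30), and those of Cxcr6 Siglecf (0.29) and Tbx21 (0.33), from mixed lists.

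Of the receptors, 3 (Cxcr6, Ccr1 and Ccr2) sit among other receptor genes within 500 kb on chromosome 9, and neighbours there differed in opposite directions. Described here, in order of position relative to the start of Ccr1, are Ccr9 (-290.3 kb), Cxcr6 (-162.2 kb), Xcr1 (-106.7 kb), Ccr1, Ccr1l1 (9.7 kb), Ccr3 (53.3 kb) and Ccr2 (133.3 kb). Ccr3, the eotaxin receptor of eosinophils, lies between Ccr1 and Ccr2, which were both lower. It stood at 3.89, 4.63 and 4.34 FPKM in MHCII-hi and 1.12, 1.15 and 1.57 FPKM in MHCII-lo, a 3.35-fold higher value (log2 change 1.22, SE 0.10, limma adjusted p = 6.54e-05). The eosinophil list, which holds Ccr3, was 7412 to 7573 FPKM in MHCII-hi and 2729 to 2790 FPKM in MHCII-lo. Ccr1 and Ccr1l1, as well as Cxcr2 and Cxcr1, are related in sequence, and the sources used here do not say how reads were divided between such relatives.

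**Figure D4:**
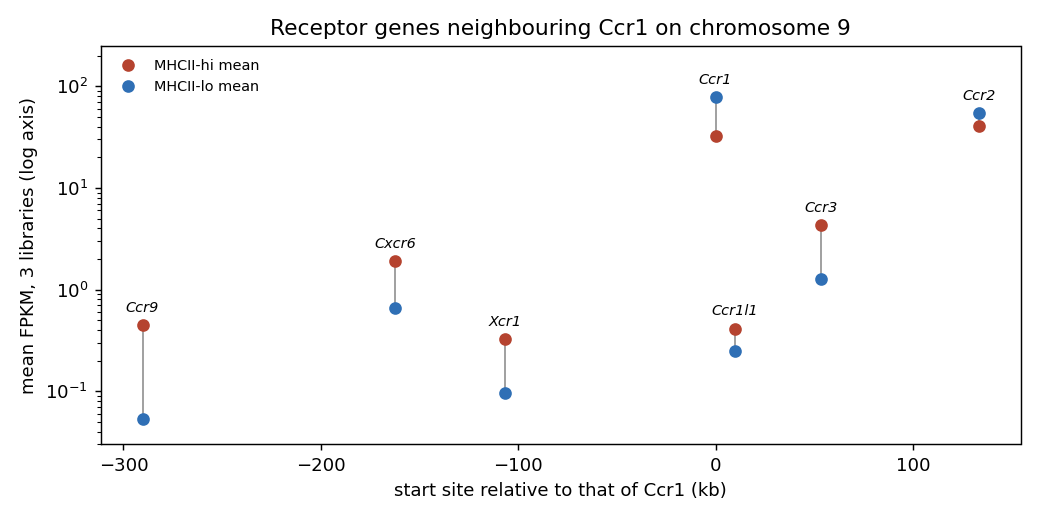
Mean FPKM on a log axis in MHCII-hi (red) and MHCII-lo (blue), 3 libraries each, for 7 receptor genes by the distance of their start site from that of Ccr1 in kb. Ccr1 and Ccr2 are the abundant genes and are lower in MHCII-hi, and Ccr3 between them is higher, at 4.29 against 1.28 FPKM.

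Further chemokine receptors were either higher in MHCII-hi cells, as Ccr3 was, or too low to test. Ccrl2, a non-signalling receptor that presents chemerin, was higher at 18.2 ± 0.758 against 6.77 ± 0.797 FPKM (SD, n = 3), with a log2 change of 1.31 (limma adjusted p = 1.69e-05). Below the minimum lay 8 receptors. Cxcr1, the neutrophil relative of Cxcr2, was listed at 0.16, 0.44 and 0.25 FPKM in MHCII-hi and 0.87, 0.76 and 0.64 FPKM in MHCII-lo. With no expression minimum it was lower (log2 change -0.46, limma adjusted p = 0.0353). The scavenging receptors Ackr1, Ackr2, Ackr3 and Ackr4 were at most 0.560 FPKM on average in either group. None of these 4 passed with no expression minimum.

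The chemokines that these receptors bind were mostly higher in MHCII-hi cells where they could be tested. Of 19 ligand genes in the files, 9 were tested: 7 were higher, 1 was lower and 1 did not pass. Among all tested genes 25.5% were higher and 33.1% lower. The median log2 change was 0.88 for the ligands and -0.04 over all tested genes. Quantile normalization gave the same ligand counts, and upper-quartile scaling gave 8 higher and 1 lower. Ccl5, a ligand of Ccr1, stood at 36.9 ± 2.20 against 10.3 ± 1.21 FPKM (SD, n = 3; log2 change 1.75, limma adjusted p = 5.95e-06). Ccl3, also a ligand of Ccr1, stood at 317 ± 13.8 against 172 ± 5.24 FPKM, the Ccr1 ligand Ccl6 at 170 ± 5.06 against 103 ± 0.286 FPKM, and the Cxcr2 ligand Cxcl2 at 70.0 ± 1.34 against 45.8 ± 0.918 FPKM. Thus Ccr1 and Cxcr2 were lower while Ccl3, Ccl5, Ccl6 and Cxcl2, named for their small p, were higher. Ccl9 was the tested ligand that did not pass, at 64.8 ± 1.14 against 63.3 ± 2.57 FPKM (limma adjusted p = 0.432). Ccl2, the ligand of Ccr2, was lower together with its receptor, at 9.27, 10.36 and 8.91 FPKM in MHCII-hi and 18.73, 19.37 and 17.62 FPKM in MHCII-lo (log2 change -0.90, limma adjusted p = 3.13e-05). Cxcl12, the stromal ligand of Cxcr4, was at 1.91 ± 0.151 against 0.467 ± 0.0586 FPKM. It is among the higher ligands counted above, but was tested only because of its MHCII-hi level, which favours a difference. Cxcl13 was listed at 0 in all 6 libraries.

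The S1P pathway did not move as a block. Of the other S1P receptors, S1pr2 (1.41 ± 0.246 against 1.61 ± 0.0889 FPKM; SD, n = 3) and S1pr3 (1.21 ± 0.0950 against 0.990 ± 0.274 FPKM) did not pass (limma adjusted p = 0.312 and 0.28), with 95% intervals that limma gives in log2 as -0.34 to 0.10 and -0.12 to 0.43. With quantile normalization S1pr2 was lower (log2 change -0.28, limma adjusted p = 0.0327). S1pr4, the receptor of myeloid and lymphoid cells, was the most abundant at 10.3 ± 0.792 against 12.6 ± 1.19 FPKM. Its log2 change was -0.26 (limma adjusted p = 0.0253), a call lost with upper-quartile scaling (0.198), when scaled without immunoglobulin genes (0.321), with no expression minimum (0.108), with a replicate block (0.0642) and without MHCII-lo replicate 3 (0.0569), MHCII-hi replicate 2 (0.0574) or MHCII-hi replicate 3 (0.0752). S1pr5, the receptor of NK cells, lay below the minimum at 0.92, 0.68 and 0.76 FPKM in MHCII-hi and 0.10, 0.49 and 0.35 FPKM in MHCII-lo. Its groups did not overlap, and with no expression minimum the log2 change was 0.45 (95% interval 0.10 to 0.80, limma adjusted p = 0.0783), which did not pass. Of 6 tested genes of S1P synthesis, transport and breakdown, 4 were higher, 1 was lower and 1 did not pass. With quantile normalization 3 of them were higher and 1 lower. In the main fit 25.5% of all tested genes were higher and 33.1% lower. The S1P exporters Spns2 and Mfsd2b stood at 7.26 ± 0.195 against 3.93 ± 0.226 FPKM and 5.89 ± 0.487 against 3.09 ± 0.260 FPKM, each with a log2 change of 0.75. The phosphatase Sgpp1 was lower (log2 change -0.49, limma adjusted p = 2.16e-04) and the lyase Sgpl1 was higher (0.27, limma adjusted p = 0.00168).

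Regulators of these receptors differed in both directions, as did tested genes at large. Over all tested genes 25.5% were higher, 33.1% were lower and 58.6% passed in either direction, so mixed counts in the lists below are common. Of 8 genes that set receptor levels at the surface, 2 were higher, 2 were lower and 4 did not pass, but 6 were higher and 2 lower when scaled without immunoglobulin genes, and 2 were higher and 4 lower with quantile normalization. Cd69, the lymphocyte protein that pulls S1pr1 off the surface, was higher at 35.5 ± 0.865 against 19.8 ± 1.19 FPKM (SD, n = 3; log2 change 0.81, limma adjusted p = 1.33e-05). Klf2, a transcription factor known to switch on S1pr1 in T cells, was lower at 88.3 ± 3.26 against 123 ± 4.47 FPKM (log2 change -0.47, limma adjusted p = 6.39e-05), while S1pr1 itself was higher. Grk3, a kinase that desensitizes Cxcr4, stood at 11.2 ± 0.300 against 4.44 ± 0.230 FPKM (log2 change 1.16, limma adjusted p = 2.37e-06), and the arrestin Arrb2 at 57.0 ± 1.49 against 74.6 ± 1.84 FPKM. Of 12 tested G protein and RGS genes, 6 were higher, 5 lower and 1 did not pass. With a replicate block 4 were higher and 4 lower, and with quantile normalization 4 and 6. Rgs1, an inhibitor of G protein signalling that limits chemokine responses, was higher at 68.5 ± 0.487 against 31.2 ± 0.155 FPKM (log2 change 1.11, limma adjusted p = 6.51e-08). The inhibitory G protein subunits Gnai2 and Gnai3 were lower, with log2 changes of -0.39 and -0.51. Of 14 migration effectors 5 were higher, 6 lower and 3 did not pass, and 8 were higher and 4 lower when scaled without immunoglobulin genes. Coro1a, an actin-binding protein of leukocytes, was lower at 240 ± 2.61 against 359 ± 5.16 FPKM, and the Rac activator Dock2 was higher at 29.2 ± 0.520 against 23.1 ± 0.315 FPKM.

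**Figure D5:**
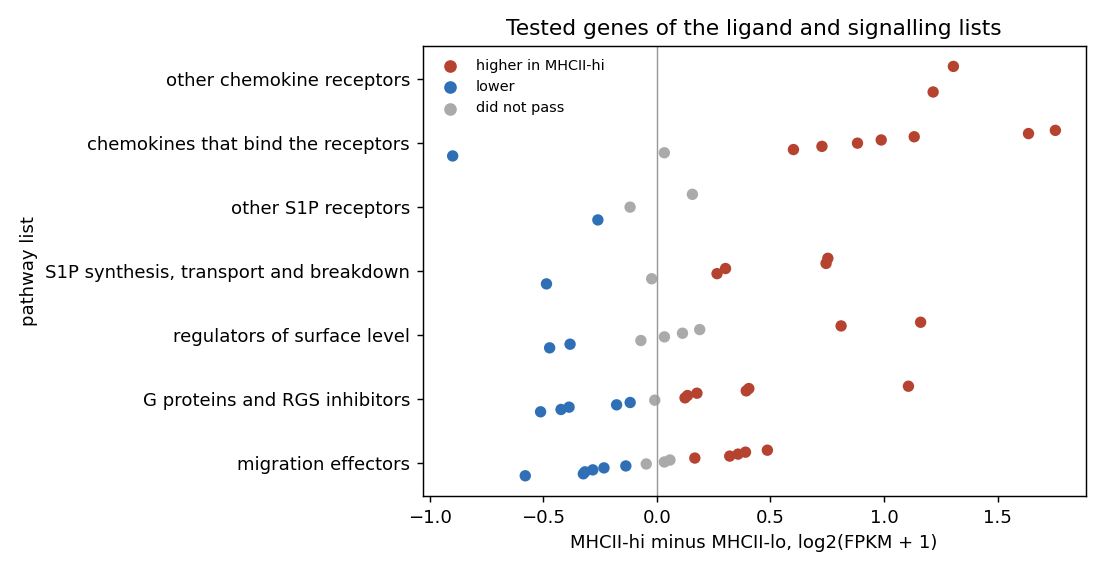
Difference between MHCII-hi and MHCII-lo on the log2(FPKM + 1) scale for tested genes of 7 ligand, receptor and signalling lists, coloured by the limma test at an adjusted p of 0.05 (red higher, blue lower, grey did not pass). Ligands lie mostly to the right, with Ccl2 at -0.90 the exception that passed, and the signalling lists lie on both sides of 0.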

How the data were processed

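Each library has a table, deposited by the authors, of gene symbols and values. Its header gives no unit. The values were taken to be FPKM computed by the authors, from their decimals and sums and because the submitters' processing notes name StringTie. Those notes also name fastp, HISAT2 and GRCm38 (mm10). The sums differed by group: 332289.0 to 333021.1 in MHCII-lo and 382536.0 to 383599.6 in MHCII-hi libraries. The sources used here do not give versions, settings or the annotation. FPKM depends on each library's total, so abundant transcripts lower all others.

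Of 30803 rows, 70 sharing a symbol with a higher row were dropped. Genes averaging 1 FPKM or more were tested on log2(FPKM + 1) by limma (3.58.1, in R 4.3.3) with its trend on mean intensity, no covariate, two-sided, adjusted by Benjamini-Hochberg over all 12110, and tested on simulated data. Changes on this scale understate those of low genes, so folds are ratios of mean FPKM. Depth was read from the first step of FPKM times length in single-exon genes of 300 to 1500 bases, sought only between 25 and 60. Estimated fragments of a receptor use its coding transcripts' lengths. The comparison of replicates with counting used the joint length of all exons of a gene instead. That can overstate fragments and so raise the ratio. Tests made for read counts were not run. Coordinates are from GENCODE M21 on GRCm38.

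The receptors and lists were chosen with earlier results of these data known. Named were all 10 receptors, up to 4 genes with the smallest p of each pathway list, all further receptors, the 2 marker genes nearest each tested receptor, and abundant markers. Cxcl12, Ccl2, Ccl9, Cxcl13, Mecom, Fgd5, Cr2, Ltf, Stfa2, Mmp8 and the ratios were picked after their values were seen. Ccl19 and Ccl21a were not analysed here, and results for 2 of the named genes were left out. Alternatives were a pseudocount of 0.1, a minimum of 5 FPKM or none, quantile normalization, upper-quartile scaling, scaling without 305 immunoglobulin genes, limma without trend or with robust moderation, a replicate block, and each library left out.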

Additional observations from a re-analysis of the deposited data

How the results depend on the processing

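Of 130 values of the 9 tested receptors under alternatives, 129 kept their direction and their side of the threshold, and 1, Cxcr4 with quantile normalization, did not pass. The largest limma adjusted p of the other 8 was 0.0123, for Cxcr6 with no expression minimum. A minimum of 5 FPKM left 1 receptor higher (Cxcr4), since the other 5 are then not tested, and 3 lower. Over all genes 3084 were higher and 4009 lower. With a minimum of 5 FPKM 1792 were higher, with upper-quartile scaling 2405 were lower, and when scaled without immunoglobulin genes 4901 were higher and 2131 lower. Quantile normalization went the other way, with 2547 higher and 4752 lower. Leaving out each library in turn gave 2760 to 2893 higher and 3589 to 3688 lower genes, and always 6 and 3 receptors. Same-numbered libraries did not deviate together (correlations -0.092, -0.004 and -0.035). This shows no pairing by number but cannot exclude one, because technical scatter could hide a shared origin. With the replicate block 2856 genes were higher and 3782 lower, and 6 and 3 receptors. A pseudocount of 0.1 moved the log2 change of low receptors by construction, such as S1pr1 to 1.68. Depth limits Cxcr5, Ccr7, Cxcr3 and Cxcr6 in MHCII-lo cells most.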

Other observations

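Several receptors that lay below the expression minimum were higher in MHCII-hi cells in the limma fit with no minimum, in which 12.4% of genes were higher. They belong to the 8 further chemokine receptors below the minimum. Of these, Cxcr1 was lower and the rest, among them Ccr1l1 (limma adjusted p = 0.423), did not pass. Ccr10, the receptor by which IgA plasma cells reach mucosal tissue, was at 1.54, 1.07 and 0.88 FPKM in MHCII-hi and 0.04, 0.24 and 0.09 FPKM in MHCII-lo (limma adjusted p = 0.0103). Ccr9, a gut-homing receptor also found on plasmacytoid dendritic cells, was at 0.450 ± 0.0700 against 0.0533 ± 0.0153 FPKM (SD, n = 3; limma adjusted p = 0.00183). Ccr6 and Ccr8, receptors of T cell and B cell subsets, were listed at 0 in all 3 MHCII-lo libraries and averaged 0.250 and 0.313 FPKM in MHCII-hi. These levels are near that of Cxcr5 in MHCII-hi (0.273 FPKM) and so close to the detection limit. Xcr1, which marks cross-presenting dendritic cells, was at 0.327 ± 0.0611 against 0.0967 ± 0.0252 FPKM (limma adjusted p = 0.00990). The signalling inhibitor Rgs16 was at 1.45, 1.21 and 1.11 FPKM against 0.11, 0.07 and 0.07 FPKM (limma adjusted p = 7.36e-04), and the Cxcr6 ligand Cxcl16 at 0.98, 0.78 and 1.34 against 0.05, 0.15 and 0.13 FPKM (limma adjusted p = 0.00714). Rgs16 and Cxcl16 were picked after their values were seen.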
